A study of Caenorhabditis elegans with 2 samples.

Results

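Peaks at one-sided protein-coding promoters are NHR-111 intervals whose summit, the base of highest signal in the interval, lay near the start of protein-coding genes read from one strand of the DNA only. They were chosen from the 5000 intervals of highest signal in the list pooled over both replicates. Summits within 250 bp of the start of a gene of the annotated type tRNA, snoRNA, snRNA, rRNA, miRNA or ncRNA were left out. Starts of piRNA, lincRNA, antisense RNA genes and pseudogenes were not used for this, and 10 members lay within 250 bp of such a start. The window of a protein-coding start began 1000 bp before it and ended 200 bp after it, and a summit was kept if it lay in windows of one strand alone. The rule kept 918 of the 5000 intervals, out of 30000 in the pooled list, and these 918 are called members here. They are 18.4% of the 5000, and such windows cover 18.6% of the genome. Summits in windows of both strands, called divergent promoters, numbered 124, summits near small RNA starts 795, and summits in none of these classes 3163. Because the pooled signal chose the members, their pooled signal is given only as a description.

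The study recovered chromatin bound by a tagged NHR-111 from whole Caenorhabditis elegans L4 larvae, 48 h old, by precipitation with an antibody against GFP, and sequenced the DNA. The strain was OP569, an unc-119(tm4063) mutant with the insertion wgIs569, which holds nhr-111::TY1::EGFP::3xFLAG and a rescuing unc-119(+). The tag sat at the C terminus of a receptor made from the inserted transgene, and all animals carried the same mutation and rescue. Both sexes were pooled, and the animals had been synchronised by bleaching and starvation at the L1 stage. A single group of 2 biological replicates was available, so no condition was compared, no test between groups was possible, and the spread shown is that between these 2 libraries. A profile from whole animals mixes all tissues, and a precipitation without the tag or with another factor was not analysed here.

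Nuclear hormone receptors are transcription factors that bind DNA through a pair of zinc fingers, commonly at sites built from the half-site AGGTCA, and the family is greatly expanded in nematodes. In C. elegans the annotated start of a gene often lies downstream of the point where transcription begins, because many transcripts are trimmed and joined to a spliced leader. Many genes also lie in operons, in which genes on the same strand follow each other closely and share an upstream promoter. A one-sided promoter has a single direction of annotated protein-coding genes, which lets a summit be assigned to a direction of transcription.

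The sequences around the summits of the 8 strongest members chosen among the named genes, outside genes and outside 1 chromosome left out of sequence printing, are shown because their signals are high and 4 of them hold a word described below. Each reaches 50 bp to either side of the summit, as do all summit windows below, and was taken from the RefSeq sequence of WBcel235 (ce11) and is written 5′ to 3′ on the strand of the gene. Capitals mark the word AAACACGC or its reverse complement GCGTGTTT. The windows lie at chrIII:3867544-3867644 (plus strand, rpl-3), chrIII:9765569-9765669 (plus, cbp-1), chrIII:9053983-9054083 (minus, R107.5), chrIII:7854633-7854733 (plus, rpl-35), chrII:10542079-10542179 (minus, pro-1), chrII:10563528-10563628 (minus, cdc-48.1), chrV:5592051-5592151 (plus, vps-37) and chrIII:12905148-12905248 (plus, cox-5A). All 8 summits lay in intergenic sequence.
rpl-3: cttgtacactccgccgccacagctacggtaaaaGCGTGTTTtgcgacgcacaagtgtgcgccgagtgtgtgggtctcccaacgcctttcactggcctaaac
cbp-1: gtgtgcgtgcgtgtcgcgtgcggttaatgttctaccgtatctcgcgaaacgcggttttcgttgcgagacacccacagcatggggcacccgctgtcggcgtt
R107.5: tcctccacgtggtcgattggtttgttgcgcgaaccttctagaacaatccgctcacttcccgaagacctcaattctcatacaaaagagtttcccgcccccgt
rpl-35: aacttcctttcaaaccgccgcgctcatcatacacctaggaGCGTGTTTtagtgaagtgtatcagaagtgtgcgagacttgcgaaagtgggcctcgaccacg
pro-1: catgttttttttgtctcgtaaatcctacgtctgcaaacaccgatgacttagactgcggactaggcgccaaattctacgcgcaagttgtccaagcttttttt
cdc-48.1: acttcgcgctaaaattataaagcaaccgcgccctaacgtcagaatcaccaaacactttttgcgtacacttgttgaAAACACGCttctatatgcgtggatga
vps-37: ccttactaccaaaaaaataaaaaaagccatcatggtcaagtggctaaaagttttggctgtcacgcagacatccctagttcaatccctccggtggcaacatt
cox-5A: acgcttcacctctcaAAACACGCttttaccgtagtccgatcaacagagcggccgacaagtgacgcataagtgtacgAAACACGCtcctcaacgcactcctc

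The strongest member lay upstream of rpl-3, which encodes a protein of the large ribosomal subunit. Its pooled signal was 410, the second highest of all intervals, with 180 in replicate 1 and 230 in replicate 2 (205 ± 35.6, SD, n = 2). It was the only member besides cbp-1 with a signal above 100 in both replicates. The summit lay 260 bp upstream of the start. The next member was upstream of cbp-1, the worm homologue of the histone acetyltransferases CBP and p300. It gave 119.1 in replicate 1 and 189 in replicate 2, and its summit lay 890 bp upstream of the annotated start. A second member at cbp-1, 147 bp upstream, was weaker, with 54.96 and 31.9.

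A second gene of the large ribosomal subunit, rpl-35, gave 95.6 in replicate 1 and 128 in replicate 2, with the summit at 451 bp upstream. R107.5 gave 93.5 and 139, with the summit at 243 bp upstream. In each of these 4 strongest members replicate 2 was higher than replicate 1. The small-subunit gene rps-16 gave 76.4 and 106 with its summit 38 bp inside the gene, in a coding exon.

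The other members among the 15 strongest had means over the replicates from 67.6 to 82.5. They lay at kin-14, a protein kinase gene, at pro-1, a WD-repeat gene needed for ribosome production, and at cdc-48.1, which encodes an ATPase that unfolds ubiquitinated proteins. Further ones lay at vps-37, of the ESCRT-I sorting complex, at ego-1, an RNA-directed RNA polymerase of the germline, and at xrn-2, a nuclear exoribonuclease. The remainder lay at cox-5B, a subunit of cytochrome c oxidase, and at Y71F9AL.8, Y56A3A.22 and Y48G8AL.7. Replicate 2 was the higher one in all 15, with the smallest difference at ego-1 (71.2 and 71.7).

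Over all members the pooled signal ran from 59.2 to 410 with a median of 69.6, beside 71.4 at divergent promoters. The last interval kept was at fem-1, a sex determination gene, at rank 4991 with a signal of 59.2. The first one-sided interval not kept was at srx-118, a chemoreceptor gene, at rank 5015 and also at 59.2, so the signal does not separate members from the intervals just below them. The authors' thresholded list, derived by the irreproducible discovery rate, which rates each peak by how well its rank is repeated, held 501 peaks. Of the members, 86 were thresholded peaks, the last of them at F46B6.6 with a signal of 101.5, and the first member outside that list, at rank 509, had 101.1. The remaining 832 members came from a list that by its design includes background.

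The share of summits at one-sided promoters varied with rank. Among the 501 strongest intervals, 86 of the 244 summits away from small RNA starts were one-sided, or 35.2% (exact 95% interval 29.3 to 41.6%). One-sided windows cover 19.3% of the genome outside the small RNA zones. Within the first 100 ranks it was 6 of 27 summits (22.2%, interval 8.62 to 42.3%). The share was 25.2% at ranks 502 to 1000, 21.9% at ranks 1001 to 2500 and 19.8% at ranks 2501 to 5000. At ranks 5001 to 10000 it was 17.9%, and at ranks 25001 to 30000 it was 20.5%. Over all of the strongest 5000 it was 21.8% (interval 20.6 to 23.1%). The interval for the 501 strongest lay above the share of the genome, while that for the first 100 ranks included it, as did the interval at ranks 2501 to 5000 (18.2 to 21.5%), where 451 of the 918 members lay.

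**Figure D1:**
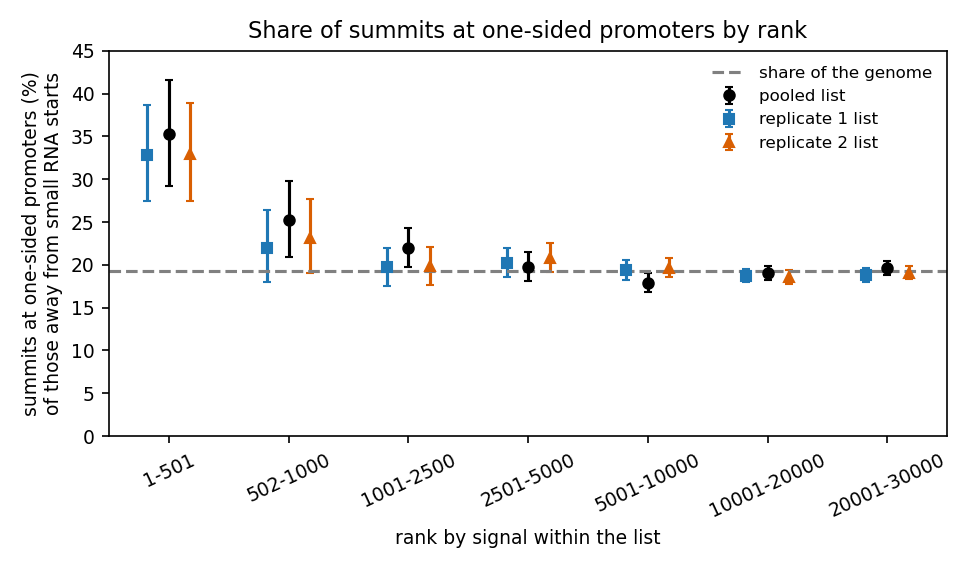
Share of summits at one-sided promoters (percent of summits away from small RNA starts, vertical axis) by rank within the pooled list and each replicate list (horizontal axis). Points are shares and bars exact 95% intervals that cover counting error of peaks only, and the dashed line is the 19.3% of the genome in such windows. The pooled share falls from 35.2% at ranks 1 to 501 to 19.8% at ranks 2501 to 5000.

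Ranked alone, each replicate list also had a higher share among its 501 strongest intervals. At ranks 1 to 501 replicate 1 gave 32.9% and replicate 2 gave 33.0% (32.9 ± 0.0741%, SD, n = 2), and at ranks 1001 to 2500 and 2501 to 5000 the shares were 19.8 ± 0.0951% and 20.5 ± 0.423%, without the fall seen in the pooled list. Within the first 100 ranks the replicates differed, with 15.6% in replicate 1 and 36.4% in replicate 2. The whole strongest 5000 held 898 one-sided summits in replicate 1 and 910 in replicate 2. Divergent promoters showed a larger relative excess at the top: 17 of the 244 summits, beside 2.06% of the genome.

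Member summits were found again in the replicates to a degree that also depended on rank. A replicate summit within 200 bp was counted as the same one, and the pooled list contains both replicates, so this is a description. In the full lists, which cover many weak intervals, 832 members (90.6%) had a match in both. Among the strongest 5000 intervals of each replicate, 527 members (57.4%) had a match in replicate 1, 567 (61.8%) in replicate 2 and 277 (30.2%, interval 27.2 to 33.3%) in both. For 11% of members neither strongest 5000 held a match. Of the 86 thresholded members 82 (95.3%) were in both, and of the 832 others 195 (23.4%). The thresholded list was made by how well ranks are repeated, so its high share follows in part from that choice. Summits at small RNA starts were in both in 55.6% of cases, divergent promoters in 30.6% and other summits in 24.7%.

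Over the 832 members matched in both full lists, the signal of replicate 2 was a median 1.12 times that of replicate 1, from 0.333 to 4.76 times. The SD over the replicates had a median of 21.9% of the mean, and the replicate summits lay a median 40 bp apart. Spearman's rho between the replicate signals was −0.03 and Pearson's r on the log2 scale 0.12, across peaks (n = 832) that were selected on the pooled signal and share a control alignment. Selecting on a pooled signal leaves out peaks that were low in both replicates.

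**Figure D2:**
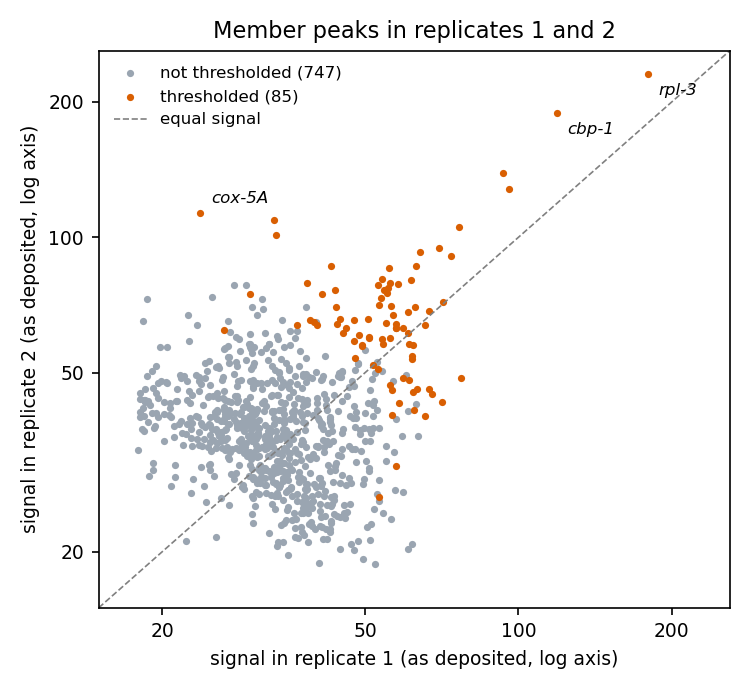
Signal as deposited of the 832 members matched in both full replicate lists, with replicate 1 on the horizontal and replicate 2 on the vertical axis, both logarithmic. Each point is a member, orange points are thresholded members, and the dashed line marks equal signal. The rpl-3 and cbp-1 peaks stand apart at the upper right, while cox-5A has 23.8 in replicate 1 and 113 in replicate 2.

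Single members differed widely between the replicates. Among members at ranks up to 1000, cox-5A, another cytochrome c oxidase subunit, had the largest excess in replicate 2, with 23.8 in replicate 1 and 113 in replicate 2. The other pair were lsm-8, for a protein that binds the U6 RNA (18.7 and 72.9), and ikke-1, a kinase gene related to IKK-epsilon (33.1 and 110). Each of these values belongs to the replicate summit nearest to the pooled one, and at these 3 members it was also the strongest within 200 bp. In the opposite direction by nearest summit were mrpl-50, a mitochondrial ribosomal protein gene (52.1 and 24.9), icl-1, for an enzyme of the glyoxylate cycle (53.3 and 26.4), and F46B6.6 (57.4 and 30.9). At all 3, however, replicate 2 held a stronger summit within 200 bp, with 58.2 at mrpl-50, 67.0 at icl-1 and 45.9 at F46B6.6. By the strongest summit the order of the replicates was thus turned at mrpl-50 and icl-1. A stronger summit than the nearest was present at 43 of the 832 matched members. Among the 85 thresholded members matched in both, 8 differed by more than 2-fold by the nearest summit and 6 by the strongest.

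The windows of 897 genes held a member summit, which is 4.55% of the 19714 protein-coding genes that have a one-sided window. For thresholded members it was 90 genes, or 0.457%. Of the 897 genes, 854 had 1 summit, 41 had 2 and 2 had 3. The latter were kin-14 and kel-3, whose product belongs to the kelch family. The kel-3 summits lay at 835 and 83 bp upstream and 130 bp downstream of its start, which is itself inside another gene. The first lay in a coding exon of ant-1.1 and the second in the 3′ UTR of cdk-5. The last lay in intron sequence inside both cdk-5 and kel-3, so the assignment to kel-3 is by distance. In replicate 1 the signals of these summits were 29.7, 54.1 and 44.98. In replicate 2 they were 74.8 for the first and 50.3 for the others, which matched the same summit of that list. Taken alone, the strongest 5000 of replicate 1 touched 870 genes and those of replicate 2 touched 896, with 294 in common, 33.8% and 32.8% of the lists.

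The native nhr-111 gene had no summit in its window in the pooled list. At unc-119, which is also part of the transgene, an interval at rank 14575 had a signal of 43.5 with its summit 626 bp upstream, below the members. Reads from the transgene and from the native genes cannot be told apart.

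Gene groups were described by the share of their genes with a member, beside the 4.55% of all genes. The lists were chosen with earlier results of these data known, so their counts were not tested. Cytosolic ribosomal protein genes carried members in 8 of 72 cases (11.1%, interval 4.92 to 20.7%), and 4 of the 8 were thresholded. All 8 had matches in the strongest 5000 of both replicates, and alone the replicates gave 11 and 12 genes. Besides rpl-3, rpl-35 and rps-16, the fourth strongest was rpl-24.2, with 47.6 in replicate 1 and 58.9 in replicate 2. In the list, 3 of the 8 summits lay in coding exons, and of these only the rps-16 summit lay in an exon of the ribosomal protein gene itself. The others lay in coding exons of neighbouring genes, and the rpl-24.2 summit lay in an intron of C03D6.1. These were assigned to the ribosomal protein genes by distance alone.

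Genes of the vacuolar proton pump, which acidifies lysosomes and other compartments, carried members in 4 of 18 cases (22.2%, interval 6.41 to 47.6%), and the replicates alone gave 4 and 5. The strongest of them, at vha-2, had 92.0 in replicate 1 and no matching summit in replicate 2. A second summit at vha-2, 186 bp downstream of the start, had 33.9 and 49.9. The members at vha-11 (47.7 and 46.8), vha-13 (47.9 and 41.0) and vha-20 (42.2 and 41.4) had nearly equal replicates.

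Actin, tubulin and muscle genes carried members in 8 of 50 cases (16%, interval 7.17 to 29.1%). The replicates alone gave 14 ± 2.83% (SD, n = 2). None of the 8 had a thresholded member, beside 0.457% of all genes with a window. The strongest were the tubulin genes tba-2 (57.5 and 39.5), ben-1 (30.2 and 57.1) and tbb-2 (35.4 and 50.7), and the myosin heavy chain gene unc-54 (44.2 and 32.9). Genes listed as chromatin regulators had members in 10 of 82 cases (12.2%), but the replicates alone gave 7.93 ± 0.862%. The list was matched by gene symbol, and the 10 include mes-1, which is not a known chromatin regulator. The member at bet-2, a bromodomain gene, had 60.8 and 61.3, that at chd-1, a chromatin remodeller, had 41.2 and 74.6, that at swsn-7 had 29.6 and 58.0, and that at lin-9 had 23.4 and 63.8.

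Metabolic groups were near or above the background. Respiratory chain and ATP synthase genes had members in 7 of 66 cases (10.6%; replicates alone 8.33 ± 3.21%) and glycolysis and TCA cycle genes in 4 of 35 (11.4%; 10 ± 6.06%). In the first group the member at ndub-8, in an intron of cup-14, had 38.2 and 47.6, and that at cox-15 had 51.8 and 39.97. In the second, enol-1, for the glycolytic enzyme enolase, had 41.0 and 38.6, and gpi-1, for glucose-6-phosphate isomerase, had 31.2 and 47.5. Mitochondrial ribosomal protein genes had members in 5 of 63 cases (7.94%), lipid genes in 5 of 66 (7.58%) and histones in 4 of 73 (5.48%). The exact intervals of all these groups included 4.55%, with 4.37 to 20.6% for the respiratory group and 3.20 to 26.7% for the glycolysis group. In the lipid group fat-1, a fatty acid desaturase gene, had 50.02 and 56.3.

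Large families of sensory and environmental response genes were below the background. Chemoreceptor genes carried members in 12 of 1356 cases (0.885%, interval 0.458 to 1.54%), 23 genes in replicate 1 alone and 10 in replicate 2 alone. C-type lectins had 3 of 236 (1.27%), F-box genes 5 of 319 (1.57%) and detoxification enzymes 4 of 184 (2.17%). The interval of the detoxification enzymes, 0.595 to 5.47%, included the 4.55% of all genes. None of these members was thresholded, but of all genes with a one-sided window only 0.457% had a thresholded member. Neuropeptide and insulin genes, at 9 of 139 (6.47%), were not below the 4.55% of all genes. The strongest there, at nlp-26, had 60.8 in replicate 1 and 20.2 in replicate 2.

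Among transcription factor genes, nuclear hormone receptors carried members in 8 of 272 cases (2.94%, interval 1.28 to 5.71%). None was thresholded or in the strongest 5000 of both replicates. Of all 19714 genes with a window, 90 had a thresholded member and 278 a member in both. The strongest receptor member was at nhr-49, a regulator of fat metabolism, with 27.7 in replicate 1 and 78.4 in replicate 2. The members at nhr-32 (26.5 and 41.3), nhr-159 (43.5 and 24.2) and nhr-234 (28.6 and 40.9) also had unequal replicates. No homeobox gene of 90 carried a member, which allows a share of up to 4.02% by the exact interval. No bHLH, forkhead or GATA factor gene of 52 did either, which allows up to 6.85%. In the replicates alone, 3 homeobox genes had a one-sided peak in replicate 2 and 3 genes of the second group in replicate 1.

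**Figure D3:**
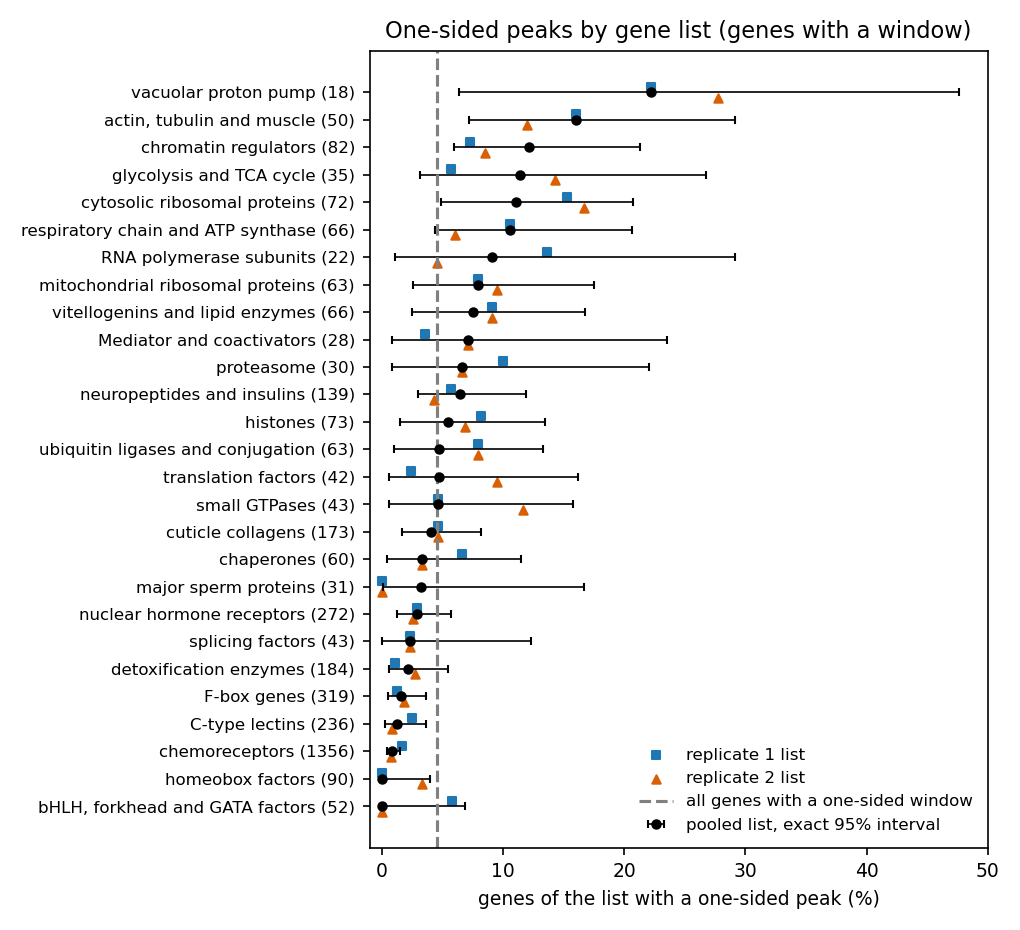
Percent of the genes of each list with a one-sided peak (horizontal axis), with the number of genes that have a one-sided window in brackets. Black points are the pooled list with exact 95% intervals that cover counting error only, squares and triangles the replicate lists, and the dashed line the 4.55% of all genes. The vacuolar proton pump has the highest share, 22.2%, with the widest interval, and chemoreceptors lie below the line in all 3 lists.

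Within the windows, the members lay closer to the start than the bases available. The median position was −256.5 bp, upstream of the start, and the replicate lists alone gave −270 and −247 bp (−258.5 ± 16.3, SD, n = 2). One-sided summits among the 5000 weakest intervals of the pooled list, used for comparison throughout, had a median of −384 bp. From the start to 200 bp downstream lay 26.3% of members (interval 23.4 to 29.2%), beside 17.2% of the bases and 19.9% of the weakest summits. In the part from 1000 to 501 bp upstream lay 33.2%, beside 42.1% of the bases. The density was highest in the first 100 bp of the gene, at 77.7 summits per Mb, and 32.6 to 44.2 per Mb in the bins from 1000 to 500 bp upstream.

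The thresholded members had a higher share within 100 bp of the start on either side, but not over the 200 bp downstream of it. In the first zone lay 28 of 86 (32.6%, interval 22.8 to 43.5%), beside 22.9% of all members and 16.8% of the bases. The interval just included the share of all members. From the start to 200 bp downstream lay 24.4% of the thresholded members, beside 26.3% of all members. In its outer part, from 100 to 200 bp downstream, lay 4 of the 86 and 114 of the 832 others.

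**Figure D4:**
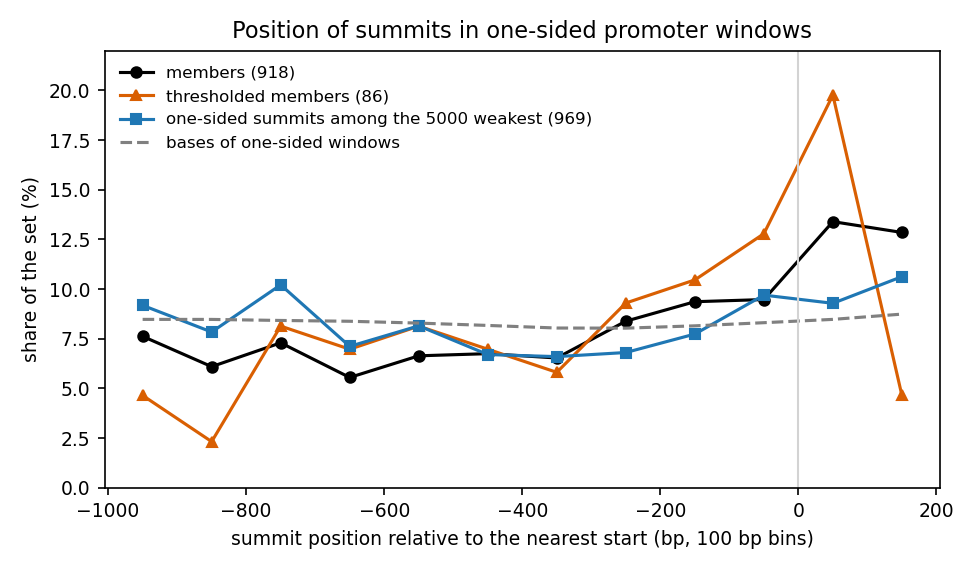
Share of summits (percent of each set, vertical axis) in 100 bp bins of position relative to the nearest start (horizontal axis, negative upstream), for all members, thresholded members and one-sided summits among the 5000 weakest intervals. The dashed line is the share of one-sided window bases in each bin. All members exceed it from 300 bp upstream onward, and 17 of the 86 thresholded members lie in the first 100 bp of the gene.

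By annotation, 418 members (45.5%) lay in intergenic sequence, 295 (32.1%) in coding exons, 99 (10.8%) in introns, 51 in 5′ UTRs and 45 in 3′ UTRs. Of the bases in one-sided windows 54.1% are intergenic and 21.6% coding. Among the weakest summits coding exons held 28.1%, and in the replicate lists alone 31.6 ± 1.39% (SD, n = 2). The thresholded members were intergenic more often, in 52 of 86 cases (60.5%), with 24 in coding exons. Of the 677 members upstream of a start, 250 (36.9%) lay inside the body of another protein-coding gene. A summit in such a place is assigned to the downstream gene by distance alone. Named genes with such a summit included T13B5.9 (in a coding exon of col-40), chd-1 (of pdi-3) and fem-1 (of drp-1). They also included icl-1 (in an intron of srh-2), rpl-24.2 (of C03D6.1), lsm-8 (in the 3′ UTR of sqd-1) and mrpl-32 (of rpn-3). Others were ndub-8 (in an intron of cup-14), vha-13 (in the 3′ UTR of cept-2) and kel-3 (in a coding exon of ant-1.1 and the 3′ UTR of cdk-5).

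The arrangement of the genes differed from that of the windows at large. The next gene upstream was on the same strand for 618 members (67.3%), beside 61.4% of the bases and 60.6% of the weakest summits. It ended within 500 bp of the start for 329 members (35.8%), beside 20.8% of the bases and 23.8% of the weakest summits. The replicate lists alone gave 33.8 ± 1.65% for the latter share (SD, n = 2), and the thresholded members 39 of 86 (45.3%). Members thus lay more often behind a close upstream gene on the same strand, the arrangement found within operons, but operon annotation was not used here. Close upstream genes also bring more coding sequence into the window.

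Members were spread unevenly over the chromosomes. Chromosome III held 186 (20.3%), beside 12.8% of the one-sided bases, and chromosome V 149 (16.2%), beside 24.96%. The replicate lists alone gave 18.4 ± 2.17% for chromosome III and 17.2 ± 2.90% for chromosome V (SD, n = 2). Chromosome I held 176 (19.2%), beside 13.9% of the bases, and the replicate lists alone gave 18.5 ± 1.42% (SD, n = 2). The X chromosome held 11.1% of members and 14.8% of the bases, with 10.4% in replicate 1 alone and 14.1% in replicate 2 alone. On the autosomes the part from 25 to 75% of the length held 442 of 816 members (54.2%), beside 54.3% of the bases.

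GC content peaked at the member summits. The summit windows had a median GC content of 44.6%, beside 36.6% for windows of the same length 300 bp to either side and 35.4% for the genome. The summit window was the richer one in 693 of 918 members (75.5%, interval 72.6 to 78.2%). The replicate lists alone gave medians of 42.6 and 44.6% (43.6 ± 1.40, SD, n = 2). The median was 47.0% for thresholded members, 46.5% at divergent promoters and 39.6% for the weakest one-sided summits. The thresholded members had richer flanks (38.1%), and their summit window was the richer one in 74.4% of cases. The higher GC content at summits was also present outside genes: intergenic members had 44.6%, those in coding exons 46.5% and those in introns 41.6%. CpG dinucleotides numbered 5.03 per window at summits and 3.57 in the flanks.

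Single members varied widely around these medians. Among the 500 strongest intervals the richest summits were at T13B5.9 (68.3%), at the zinc finger gene znf-782 (67.3%) and at egl-30 (64.4%), which encodes a G protein alpha subunit. The poorest were at mrpl-32 (22.8%), ikke-1 (28.7%) and bgal-1 (29.7%). The summit assigned to T13B5.9 lay 776 bp upstream, in a coding exon of col-40. That assigned to mrpl-32 lay in the 3′ UTR of rpn-3. Whether GC content affected recovery in the libraries was not tested.

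**Figure D5:**
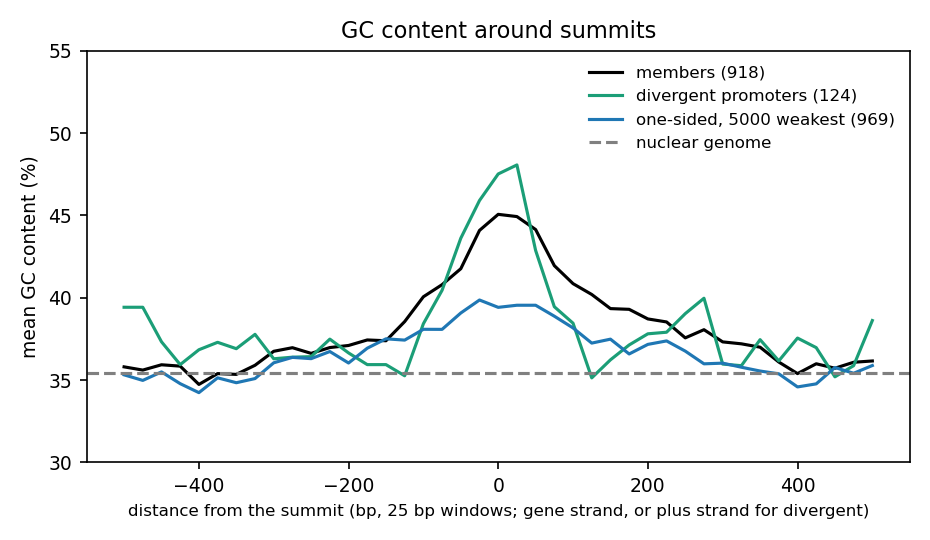
Mean GC content (percent, vertical axis) in 25 bp windows by distance from the summit (horizontal axis, in bp), for members, divergent promoters and one-sided summits among the 5000 weakest intervals. The dashed line is the nuclear genome at 35.4%. All 3 sets rise towards the summit, and the weakest intervals rise least.

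The receptor half-site AGGTCA, searched on both strands, was no more frequent at member summits than around them. It lay in 19 of 918 summit windows (2.07%, interval 1.25 to 3.21%), in 2.56% of the flanking windows and in 2.63% of windows at all one-sided promoters. The replicate lists alone gave 2.32 ± 0.448% (SD, n = 2). Other words were more frequent at the summits, without a test. GAGAGA lay in 12.2% of summit windows and 8.22% of flanks, with 6.36% at all one-sided promoters. CCGCCC lay in 5.77% and 2.18%, with 2.17% at all one-sided promoters. TGCGTC lay in 6.21% and 2.83%, with 2.78% at all one-sided promoters, and in 9 of the 86 thresholded members (10.5%). The E-box palindrome CACGTG lay in 2.94% and 1.31%, with 1.58% at all one-sided promoters. At divergent promoters the shares were 13.7% for GAGAGA, 6.45% for CCGCCC, 10.5% for TGCGTC and 4.03% for CACGTG. These come from 17, 8, 13 and 5 of only 124 windows, and each exact interval included the share at member summits. Among the weakest one-sided summits the shares were 7.12%, 2.17%, 3.51% and 2.48%, in the same order. GAGAGA and CCGCCC were not more frequent in the thresholded members than in members as a whole, with 7 of 86 (8.14%) and 2 of 86 (2.33%).

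Words of A and T were rarer at summits. The run TTTTTT lay in 22.2% of summit windows, 40.3% of flanks and 45.1% of windows at all one-sided promoters. TATAAA on the gene's strand lay in 2.94%, 5.17% and 6.98%, and TGATAA, bound by many zinc finger factors, in 6.54%, 7.41% and 10.6%. Since the summit windows were richer in GC than the flanks, these shares differ in base composition as well as in the words.

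A longer word, AAACACGC, was picked because several thresholded members share it, so its counts in them describe that choice and support nothing. On either strand it lay in 7 of the 86 thresholded members (8.14%) and in 4 of the 832 others (0.481%). It lay in 8 of 1836 flanks (0.436%), 1 of 172 flanks of thresholded members, in 1 of 969 weakest summits and in 62 of 19714 windows at all one-sided promoters (0.314%). The 7 were rpl-3, rpl-35, cdc-48.1, cox-5A, Y39B6A.43, adss-1, for an enzyme of purine synthesis, and btf-1, for a factor that removes TATA-binding protein from DNA. All 7 summits were intergenic, between 26 and 451 bp upstream of the start. The cox-5A window printed above held 2 copies, and the windows of cbp-1, R107.5, pro-1 and vps-37 held none.

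The pooled list holds both replicates, so counts of the word in each replicate alone follow from the same choice and support nothing either. Ranked alone, replicate 1 had the word in 6 of 93 one-sided summits at ranks up to 501 and 2 of 805 at ranks 502 to 5000. Replicate 2 had it in 6 of 90 and 8 of 820. Among the other thresholded peaks it lay in 2 of 257 at small RNA starts, in 1 of 17 at divergent promoters, at the ribosomal protein gene rpl-15, and in 0 of 141 elsewhere, which allows up to 2.58% by the exact interval. The genome holds 2429 copies, so most copies were not near a thresholded member. Outside the thresholded list it lay at tba-2, F22F1.3, serp-1.1 and cal-5. At tba-2 the signal was 57.5 in replicate 1 and 39.5 in replicate 2.

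The word GTTCGA, part of the internal promoter of tRNA genes, lay in 3.49% of summit windows and 3.98% of flanks, with 3.07% at all one-sided promoters. The window at vps-37, printed above, held gttcaatcc, which fits GTTCNANNC, a loose form of the tRNA internal promoter in which N is any base. This form lay in 4 of the 86 thresholded members (4.65%), 7 of 172 of their flanks (4.07%), 2.94% of all flanks and 3.13% of windows at all one-sided promoters, beside 105 of 257 thresholded summits at small RNA starts (40.9%). The 4 members with the form were vps-37, sms-3, icl-1 and kel-3.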

How the data were processed

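The 2 libraries were chromatin immunoprecipitations of whole L4 larvae, placed in a single group and numbered as in the labels. Lists of intervals on ce11 were deposited by the authors, per the labels: 30000 intervals for each replicate, 30000 for both pooled, and 501 thresholded peaks. Each list came from the replicate alignments and a shared control alignment, per text files deposited with the samples. The aligner and the peak caller with its settings were not given in the sources used here. For each interval, the deposited signal has no stated scale, so ratios, means and SDs hold on the scale as deposited. The peak's summit was its start plus the deposited summit offset. The files used hold no read totals, so depth is unknown, and exact 95% intervals (Clopper-Pearson) cover counting error of peaks or genes only.

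Gene starts, biotypes and transcript parts came from Ensembl release 115 (WBcel235, the sequence of ce11), with 9132 small RNA genes and 19973 protein-coding genes. Sequence came from RefSeq. Pooled summits were matched to the nearest replicate summit within 200 bp. Words were searched in summit windows. No scaling between replicates was applied and no significance test was made. Scripts used Python 3.11.15, numpy 2.4.6, pandas 2.3.3, scipy 1.17.1 and matplotlib 3.10.9, and the summit classification was checked on simulated data.

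The members, the 27 gene lists and the words were chosen with earlier results of these data known. Genes were named if they were at the 15 strongest members, among the 4 strongest of a list with at least 3 genes, most unequal between replicates at ranks up to 1000, at the edges of the rule, richest or poorest in GC at ranks up to 500, held the most summits, or were nhr-111 or unc-119. The genes carrying AAACACGC or GTTCNANNC, mes-1, and the second summits of cbp-1 and vha-2 were chosen after their values were seen. Alternatives were other list lengths, the thresholded peaks, other windows and small RNA distances, transcript starts, each replicate alone, matching distances and summit windows. Restriction to members in both replicate lists or to summits outside coding exons, and matching to the strongest summit within 200 bp, were added after seeing the data.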

Additional observations from a re-analysis of the deposited data

How the results depend on the processing

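No paired analysis was possible because the series has a single group. The cause of each shift below was not tested unless the setting's own construction gives it. The share of one-sided summits was 18.4% of the 5000 intervals, beside 18.6% of the genome in such windows. It was 18.7% of the 2500 strongest intervals, 17.4% of 10000 and 17.2% of the thresholded peaks. It was 10.9% with windows that begin 500 bp before and end 100 bp after the start and 29.3% with 2000 and 500 bp, which cover 10.1% and 32.2% of the genome. It was 19.1% and 16.5% with small RNA distances of 100 and 1000 bp, 24.1% with all transcript starts (22.8% of the genome), 17.96 to 18.2% for each replicate alone, 5.54% for members in both replicate lists and 12.3% outside coding exons. Genes with a member (897) numbered 466, 1675 and 90 with 2500, 10000 and the thresholded intervals, 537 and 1412 with the narrower and wider windows, 278 for members in both lists and 870 to 896 for each replicate alone. The median position (−256.5 bp) was −291 bp with 10000 intervals, −232.5 bp with the thresholded, −147 and −424 bp with the narrower and wider windows, −197 bp with transcript starts, −230 bp for members in both lists, −285 bp outside coding exons and −270 to −247 bp for each replicate alone. The share found in both replicates (30.2%) was 33.7% with 10000 intervals, 95.3% for the thresholded members and 17.3% when summits were matched within 50 bp. The median ratio of replicate 2 to replicate 1 (1.12) was 1.23 for the thresholded members and 1.17 with the narrower windows, and 1.13 with the strongest summit within 200 bp in place of the nearest. The median GC content (44.6%) was 47.0% for the thresholded members, 42.6 to 44.6% for each replicate alone and 42.8% with summit windows of 100 bp to either side. Ribosomal protein genes with a member (8) numbered 4 for the thresholded peaks, 5 outside coding exons and 11 to 12 for each replicate alone.

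With 2 libraries of unknown depth, a shared control and no other precipitation, neither the occupancy of single weak members nor a preference particular to NHR-111 can be assessed. Most members lie outside the thresholded list.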
